A study of Mus musculus with 6 samples.

Results

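The genes described here are 10 members of the transforming growth factor beta (TGF-beta) pathway, taken by symbol from a table of 16095 genes measured in sorted mouse kidney epithelial cells. They are the ligand genes Tgfb1 and Tgfb2, the receptor genes Tgfbr1 and Tgfbr2, the SMAD genes Smad2, Smad3, Smad4 and Smad7, and the repressor genes Ski and Skil. All 10 had a row in the table, and all 10 reached the minimum mean of 10 normalized counts that a gene needed to be tested. The Terf1_flox group holds 3 libraries from Trf1lox/lox mice, in which both copies of the gene for the telomere protein TRF1 (gene symbol Terf1) are flanked by loxP sites. The control group holds 3 libraries from Trf1+/+ mice. Both groups carried the KFP reporter, whose fluorescence was used in the sort, and a tamoxifen-inducible Cre under the Ksp-cadherin (Cdh16) promoter, and both received tamoxifen 3 times a week for 8 weeks, beginning at 6 to 8 weeks of age in males and females. Deletion can therefore be looked for only in tubule cells that use this promoter. The labels do not say whether a library holds 1 mouse or a pool, so p-values measure the spread between libraries, which may be technical.

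TGF-beta is secreted in a latent form, and once released it binds the type II receptor TGFBR2, which recruits and phosphorylates the type I receptor TGFBR1. TGFBR1 then phosphorylates SMAD2 and SMAD3, which join SMAD4 and enter the nucleus to regulate genes. SMAD7 blocks the receptor as a feedback inhibitor, and SKI and SKIL (also called SnoN) bind the SMADs and repress their targets. The pathway is best known in the kidney as a driver of fibrosis, the subject named in the title of the study.

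Skil was the member that stood apart, about 3-fold higher in Terf1_flox than in control libraries. Skil and its relative Ski are paralogs, so their most alike coding stretch is shown first, with the bases that differ in capitals; it bears on whether their reads can be told apart.
Skil: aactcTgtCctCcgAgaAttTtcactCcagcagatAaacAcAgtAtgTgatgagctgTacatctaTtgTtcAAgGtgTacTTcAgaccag
Ski: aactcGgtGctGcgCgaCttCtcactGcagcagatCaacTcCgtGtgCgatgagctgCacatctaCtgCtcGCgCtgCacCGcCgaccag
These 90 bases, written 5′ to 3′ on the coding strand, begin at base 505 of the 2028-base coding sequence of Skil (chromosome 3) and at base 382 of the 2184-base coding sequence of Ski (chromosome 4), both from GENCODE release M21 on build GRCm38. They were identical at 68 bases (75.6%), and the longest run common to both coding sequences was 13 bases. No stretch of 50 bases in the annotated transcripts of Skil, Ski, Smad2, Smad3, Smad4 or Smad7 occurred in another gene. For Tgfb1, Tgfb2, Tgfbr1 and Tgfbr2 the share of such stretches found elsewhere was at most 0.77%. Tgfb2 has exons that overlap the annotated gene Gm29491 on the opposite strand, and reads there cannot be told apart unless strand was used in counting.

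Each library held between 13582140 and 17680986 reads over the deposited genes, of which 4037 to 5050 fell on the 10 members in Terf1_flox and 3222 to 4180 in control libraries. Terf1 had 62.0, 24.6 and 25.3 normalized counts in the Terf1_flox and 529.6, 486 and 664 in the control libraries, so the targeted gene was low in each library that carried the floxed alleles. Its log2 fold change was −3.99 ± 0.61 (standard error; limma adjusted p = 0.0814, DESeq2 adjusted p = 5.42e-08). Epcam, the sort marker, averaged 2081 ± 802 in Terf1_flox and 4671 ± 363 in control libraries without overlap (limma adjusted p = 0.139, DESeq2 adjusted p = 0.00748). Its log2 fold change was −1.23, and −0.51 after correction for transcript GC content and length (limma adjusted p = 0.477). Cdh16 averaged 4359 ± 365 in Terf1_flox and 5641 ± 1354 in control libraries with overlap (SD, n = 3 each, for both genes). Epithelial markers were abundant: 8 markers of the thick ascending limb summed to between 195315 and 209621 normalized counts in Terf1_flox and between 235007 and 284466 in control libraries. This separation came from Umod (60497 to 66079 in Terf1_flox, 95801 to 138096 in control), since the other 7 summed to between 131116 and 144812 in Terf1_flox and between 109461 and 146369 in control libraries. Of the 8, 5 were above 0 by log2 fold change (median 0.11). The groups did not overlap for 4 of the 8, beside 21.1% of all genes tested. DESeq2 called 3, beside 5.81% of genes with an adjusted p. Slc12a1, which encodes the sodium-potassium-chloride cotransporter of this segment, was higher in each Terf1_flox library than in any control library (DESeq2 adjusted p = 0.127). Umod, Kcnj1 and Ptger3 were lower in each Terf1_flox library (DESeq2 adjusted p = 0.00139, 0.0275 and 0.0101). Slc12a1, Kcnj1 and Ptger3 were named after their values were seen. Intercalated cell markers had a median log2 fold change of −1.16 (9 tested, 8 below 0) and principal cell markers one of −1.01 (7 tested, 6 below 0), and the sums of both lists overlapped between groups. Markers of the distal convoluted and connecting tubule summed to 122277 to 209412 in Terf1_flox and 123918 to 216462 in control libraries. Proximal tubule markers (10 tested, 6 above 0, median 0.19) summed to 4382 to 15248 in Terf1_flox and 2389 to 4514 in control libraries. Kap, the highest of them, was higher in each Terf1_flox library (limma adjusted p = 0.228, DESeq2 adjusted p = 0.00316). It was the 1 gene of the 10 without overlap. Of 14 fibroblast and pericyte markers 3 were measured, with sums of 13.2 to 41.1 in Terf1_flox and 16.2 to 18.5 in control libraries. Defining ones such as Col1a1 and Pdgfrb were looked for and were not among the genes measured. Of 12 endothelial markers 2 were measured, with sums of 14.1 to 60.7 in Terf1_flox and 168 to 201 in control libraries. Of 15 macrophage and monocyte markers 6 were measured (212.5 to 542 in Terf1_flox, 440 to 510.2 in control), and of 16 lymphocyte markers 5 (32.8 to 856 in Terf1_flox, 201 to 295 in control). The mitochondrially encoded share of reads was 16.2% to 20.6% in Terf1_flox and 10.3% to 13.0% in control libraries.

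The comparison asks whether loss of TRF1 goes with a change in the transcripts of the TGF-beta pathway in the tubule cells themselves. It was fitted with limma on log2 of the normalized count plus 1, over 14822 genes with Benjamini-Hochberg adjustment; the threshold for a call was an adjusted p of 0.05, and log2 fold changes are given ± SE. Of the 10 members, limma called 0, as it did of all genes tested (0%), and edgeR likewise called 0 (0%). At an unadjusted limma p below 0.05 there was 1 member, Skil, where 14.1% of all genes tested passed, or 5.7% counting those higher in Terf1_flox. DESeq2 called 1 member, again Skil, where it called 5.81% of genes with an adjusted p. The groups did not overlap for 1 member, again Skil, against 21.1% of all genes tested, or 10.3% counting those higher in Terf1_flox. A count of 1 in 10 is near these shares of the whole table, so it is no result about the 10 members as a group. The median log2 fold change of the 10 members was 0.24, with 8 above 0, beside a median of −0.08 over all genes tested. It was 0.56 without Terf1_flox replicate 3, 0.07 without Terf1_flox replicate 2 and −0.04 without control replicate 3. After correction for GC content and length the median of the members was 0.42, beside 0.08 over all genes.

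**Figure D1:**
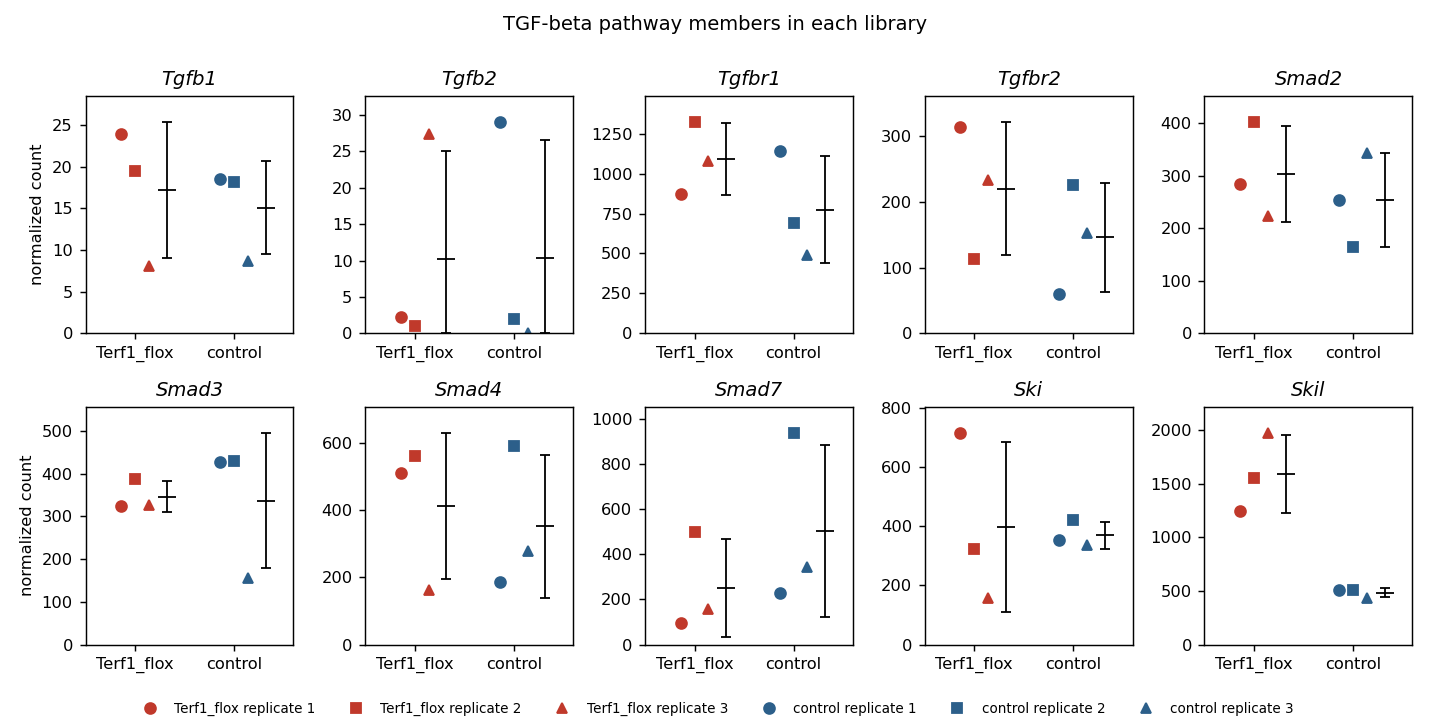
Normalized counts (y axis, linear, from 0) of the 10 members in the 3 Terf1_flox and 3 control libraries. Each point is a library, with its replicate number as its shape, and the black bar is the mean ± SD (cut at 0). Skil is the panel in which every Terf1_flox library (1249.8 to 1972) lies above every control library (436 to 513).

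The ligands were barely detected. TGF-beta 1, encoded by Tgfb1, is the main profibrotic ligand, and TGF-beta 2, encoded by Tgfb2, signals through the same receptors with the help of a co-receptor. Tgfb1 had 23.9, 19.5 and 8.10 normalized counts in the Terf1_flox libraries and 18.5, 18.1 and 8.68 in the control libraries. These values rest on 8 to 22 reads per library and overlap throughout. The log2 fold change of Tgfb1 was 0.12 ± 1.10, with a 95% interval from −2.38 to 2.63 (limma adjusted p = 0.974), so a level 4-fold lower or 4-fold higher lies inside that interval; after correction for GC content and length it was 0.82. Tgfb2 had 2.18, 1.03 and 27.3 normalized counts in the Terf1_flox libraries and 29.0, 1.91 and 0 in the control libraries. One library of each group therefore held nearly all Tgfb2 reads, 27 in Terf1_flox replicate 3 and 33 in control replicate 1, and the rest held at most 2. The count of 0 in control replicate 3 allows up to 2.37 normalized counts (3 reads, counting error only). The log2 fold change of Tgfb2, 0.35 ± 1.79 (limma adjusted p = 0.951), depends on which of these libraries is used. Leaving out control replicate 3 gave −0.72, and a pseudocount of 5 gave 0.08. Fewer cells making a ligand and less RNA per cell cannot be told apart in such bulk libraries, and the same holds for every gene below.

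Of the receptors, Tgfbr1 was expressed well and Tgfbr2 less. Tgfbr1, the type I kinase that phosphorylates SMAD2 and SMAD3, had 872, 1323 and 1081 normalized counts in the Terf1_flox libraries and 1143, 690.1 and 492 in the control libraries. Control replicate 1 lies above Terf1_flox replicates 1 and 3, so the groups overlap. Tgfbr1 averaged 1092 ± 225 in Terf1_flox and 775 ± 334 in control libraries (SD, n = 3 each), a log2 fold change of 0.56 ± 0.38 with a 95% interval from −0.31 to 1.44 (limma adjusted p = 0.553). Tgfbr2, the ligand-binding type II kinase, had 314, 113 and 233 normalized counts in the Terf1_flox libraries and 59.8, 225 and 153 in the control libraries. The values of Tgfbr2 ranged 2.78-fold among Terf1_flox and 3.76-fold among control libraries, wider than the 1.58-fold difference between groups. Its log2 fold change was 0.66 ± 0.70, with a 95% interval from −0.93 to 2.25 (limma adjusted p = 0.718).

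For the SMADs that carry the signal, the difference between group means was smaller than the spread between libraries. Smad2, which is phosphorylated by the receptor, had 285, 402 and 223 normalized counts in the Terf1_flox libraries and 254, 165 and 344 in the control libraries. Smad3, its close relative and the one most tied to fibrotic gene expression, had 324, 388 and 326 in the Terf1_flox libraries and 427, 429 and 155 in the control libraries. Smad4, the partner that both share, had 510.2, 561 and 163 in the Terf1_flox libraries and 185, 591 and 278 in the control libraries. In each of these 3 genes the groups overlapped, with the highest and lowest library of the control group on either side of most Terf1_flox values. The log2 fold changes were 0.27 ± 0.49 for Smad2, 0.18 ± 0.51 for Smad3 and 0.21 ± 0.64 for Smad4 (limma adjusted p 0.845, 0.908 and 0.915). Their 95% intervals ran from −0.85 to 1.40, from −0.99 to 1.34 and from −1.25 to 1.66, so a 2-fold higher level lies inside all 3 intervals, and a 2-fold lower one inside that of Smad4.

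Smad7, the inhibitory SMAD and itself a classic target of the pathway, was the lowest of the members by fold change and also a highly variable one. It had 95.7, 499.8 and 158 normalized counts in the Terf1_flox libraries and 229, 936 and 343 in the control libraries. Replicate 2 was the highest library in both groups, and the values overlapped: they spanned 5.22-fold within Terf1_flox and 4.09-fold within control libraries. Its SD between libraries exceeded that of 87.0% of the 500 genes nearest to it in mean level. Smad7 averaged 251 ± 218 in Terf1_flox and 502 ± 380 in control libraries (SD, n = 3 each). The log2 fold change was −1.09 ± 0.75, with a 95% interval from −2.79 to 0.62 (limma adjusted p = 0.555). Leaving out Terf1_flox replicate 2 gave −1.76, control replicate 2 −0.51 and Terf1_flox replicate 1 −0.57. With transcript GC content and length corrected it was −0.34, and Smad7 transcripts, with a median GC content of 59.2%, are among the GC-richest 2931 genes, whose median log2 fold change was −0.49.

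Skil, the repressor also known as SnoN, was higher in every Terf1_flox library than in any control library. It had 1249.8, 1554 and 1972 normalized counts in the Terf1_flox libraries and 513, 507 and 436 in the control libraries. The lowest Terf1_flox library held 2.58 times the control mean and the highest 4.06 times, and the control libraries lay within 1.18-fold of each other. Skil averaged 1592 ± 363 in Terf1_flox and 485 ± 43.0 in control libraries (SD, n = 3 each), a log2 fold change of 1.69 ± 0.31 with a 95% interval from 0.98 to 2.40, or 3.23-fold. Its limma adjusted p was 0.0926, short of the threshold, and it ranked 73 of 14822 genes by p; an exact permutation test gave 0.1, the minimum for 3 libraries against 3. DESeq2 on the recovered reads gave an adjusted p of 4.4e-05 and edgeR 0.105, and limma restricted to 10762 genes averaging 50 or more gave 0.0345. The log2 fold change of Skil stayed between 1.52 and 1.85 under the 18 alternatives tried, each library left out in turn among them.

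Ski, the founding member of this repressor family, overlapped between groups. It had 714, 321 and 156 normalized counts in the Terf1_flox libraries and 352, 421 and 335 in the control libraries. The Terf1_flox libraries thus lie on both sides of a narrow control range, 4.58-fold apart among themselves against 1.26-fold in control. The log2 fold change of Ski was −0.16 ± 0.58, with a 95% interval from −1.47 to 1.15 (limma adjusted p = 0.93). Leaving out Terf1_flox replicate 3 gave 0.38 and leaving out Terf1_flox replicate 1 gave −0.71; edgeR gave 0.13, DESeq2 0.12 and the correction for GC content and length 0.26.

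**Figure D2:**
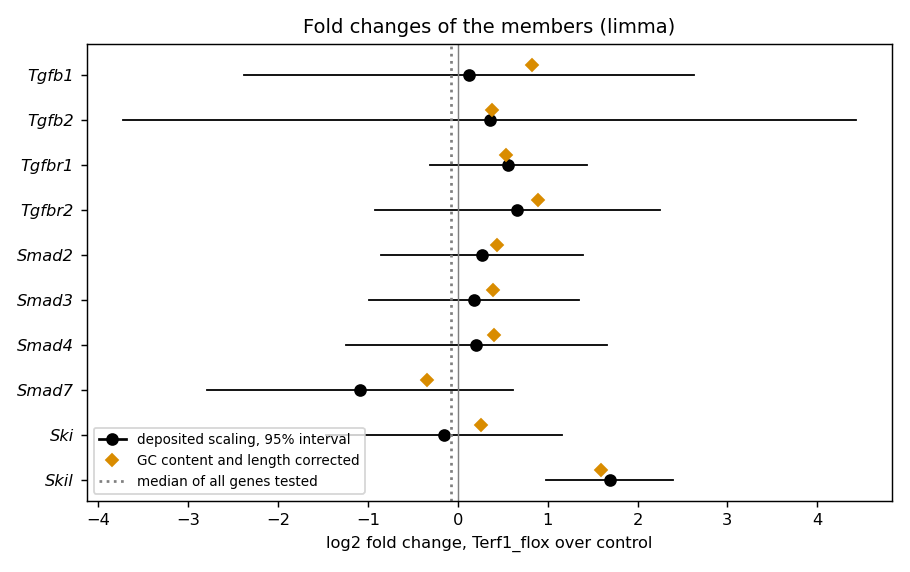
Log2 fold changes of the members, Terf1_flox over control (x axis), from limma with 95% intervals (black) and after correction for transcript GC content and length (orange). The dotted line is the median of all genes tested, −0.08. Only the interval of Skil, 0.98 to 2.40, lies wholly above 0, and the interval of Tgfb2 is the widest.

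A few measured differences between the groups run beside that of Skil, and their part in it was not tested. Skil transcripts have a median GC content of 43.3%, which places Skil among the GC-poorest 2931 genes (25.6% to 44.0%). Those genes had a median log2 fold change of 0.36, and 9.31% of them reached the log2 fold change of Skil. After correction for GC content and length Skil was at 1.59 (limma adjusted p = 0.169). The mitochondrial share of reads, Epcam, the thick ascending limb sum and the sum of the 2 measured endothelial markers, given above, also separated the groups without overlap. Of the 2 endothelial markers, Esam did not overlap between groups and Ehd3 did. The total of normalized counts separated them too, at 15088177 to 15779533 in Terf1_flox and 12945520 to 14136450 in control libraries. With equal library totals Skil was at 1.52 (limma adjusted p = 0.0904). The summed level of 12 immediate early and stress genes overlapped. It was 999 to 1527 normalized counts in Terf1_flox and 1364 to 1659 in control libraries. The groups did not overlap for 2 of the 12 genes, beside 21.1% of all genes tested. DESeq2 called both, where it called 5.81% of genes with an adjusted p. Nothing particular to a list of 12 is read from these counts. The 2 genes were Ier2 and Atf3, both named after their values were seen. Ier2, an immediate early gene, had 58.7, 27.7 and 54.6 in Terf1_flox and 356, 301 and 302 in control libraries (log2 fold change −2.81 ± 0.61, limma adjusted p = 0.125, DESeq2 adjusted p = 0.00178). Atf3 was higher in every Terf1_flox library, but narrowly. Its lowest Terf1_flox value was 2.02 (replicate 3) and its highest control value 1.76 (replicate 1). Both lie below what 3 reads are worth in those libraries (3.04 and 2.64), so the separation of Atf3 rests on counts near 0. Tgfbr1, with a similar GC content of 43.4%, was at 0.54 after that correction.

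Ratios within a library depend little on its scaling, except for genes near 0, since 1 was added to each normalized count. Skil over Ski was 1.75, 4.83 and 12.6 in the Terf1_flox libraries and 1.46, 1.20 and 1.30 in the control libraries, without overlap. As a log2 ratio this averaged 2.24 ± 1.42 in Terf1_flox and 0.40 ± 0.14 in control libraries (SD, n = 3 each). The exact two-sided permutation p was 0.1, or 0.5 when adjusted over the 5 ratios tested. Terf1_flox replicate 1, with 1.75, was close to the highest control value of 1.46; it is also the Terf1_flox library with the highest Ski. The difference in the log2 ratio was 1.85, and 1.14 without Terf1_flox replicate 3.

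The ratio of the inhibitor Smad7 to Smad3 was 0.297, 1.29 and 0.486 in the Terf1_flox libraries and 0.537, 2.18 and 2.21 in the control libraries. These overlap, since control replicate 1 lies among the Terf1_flox values (difference of log2 ratios −1.26, exact permutation p = 0.2, adjusted 0.5). Smad2 over Smad3 differed by 0.10 on the log2 scale, Tgfbr1 over Tgfbr2 by −0.10 and Tgfb1 over Tgfb2 by −0.23, each with overlap and an exact permutation p of at least 0.8. The difference for Tgfb1 over Tgfb2 rests on counts near 0. It was −0.43 with a pseudocount of 0.5 and 0.02 with a pseudocount of 5. No ratio passed, and 3 libraries against 3 could not have given a p below 0.1.

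**Figure D3:**
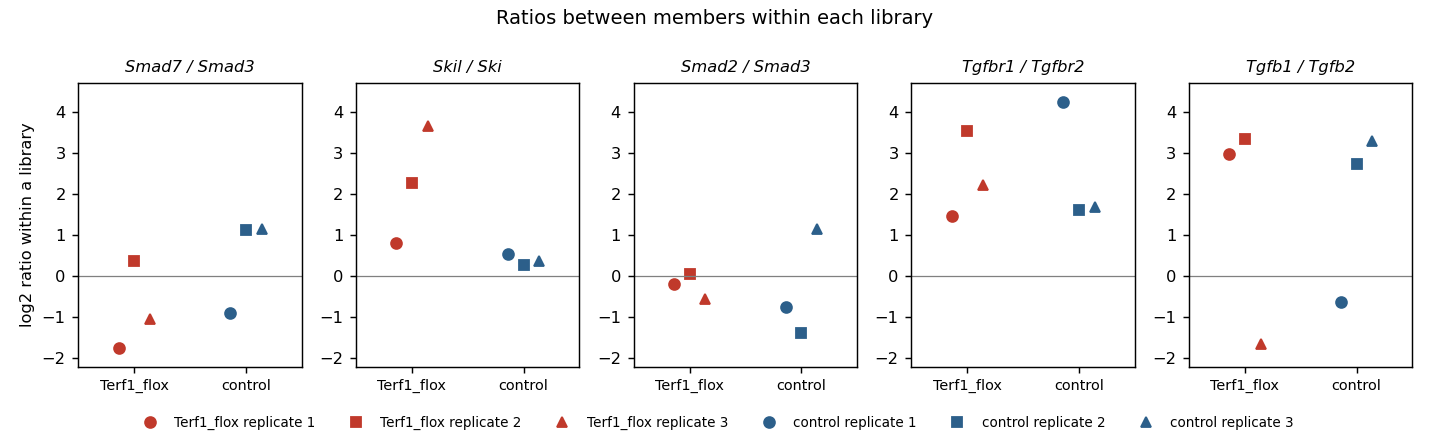
Log2 ratios between members within each library (y axis), for the 3 Terf1_flox and 3 control libraries; each point is a library, with its replicate number as its shape. Skil over Ski is the panel without overlap, from 0.81 to 3.65 in Terf1_flox and from 0.27 to 0.54 in control libraries.

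Levels of different genes were compared as normalized counts per kilobase of transcript, using the median length of the protein-coding transcripts in GENCODE M21. By group means the order in the Terf1_flox libraries was Smad3 (572 ± 60.1), Skil (548 ± 125), Tgfbr1 (466 ± 96.1), Smad2 (232 ± 69.9), Smad7 (188 ± 163), Smad4 (147 ± 77.2), Ski (73.3 ± 52.9), Tgfbr2 (38.0 ± 17.5), Tgfb1 (7.90 ± 3.76) and Tgfb2 (2.37 ± 3.46). In the control libraries it was Smad3 (557 ± 261), Smad7 (376 ± 284), Tgfbr1 (330.4 ± 142), Smad2 (195 ± 68.7), Skil (167 ± 14.8), Smad4 (125 ± 75.8), Ski (68.2 ± 8.46), Tgfbr2 (25.2 ± 14.3), Tgfb1 (6.94 ± 2.55) and Tgfb2 (2.40 ± 3.78), each per kilobase with its SD over 3 libraries. Skil was thus at rank 2 per kilobase in Terf1_flox and at rank 5 in control libraries. Over all 6 libraries every pair of neighbours in the order of overall means had overlapping ranges. Within libraries, Smad3 exceeded Tgfbr1, Smad4 exceeded Ski and Tgfbr2 exceeded Tgfb1 in 6 of 6, while the other neighbours changed places in at least 1 library; these orders were not tested. The upper part of the order depends on transcript length: with the longest transcript of each gene, Smad3 moved to rank 6 and only 4 members, Smad7, Tgfbr2, Tgfb1 and Tgfb2, kept their rank. The ligands stayed lowest with either length. Per kilobase, Tgfb1 exceeded 7.17% and Tgfb2 0.512% of the 14654 tested genes with a length, while Tgfbr1 exceeded 80.8% and Skil 79.2%.

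**Figure D4:**
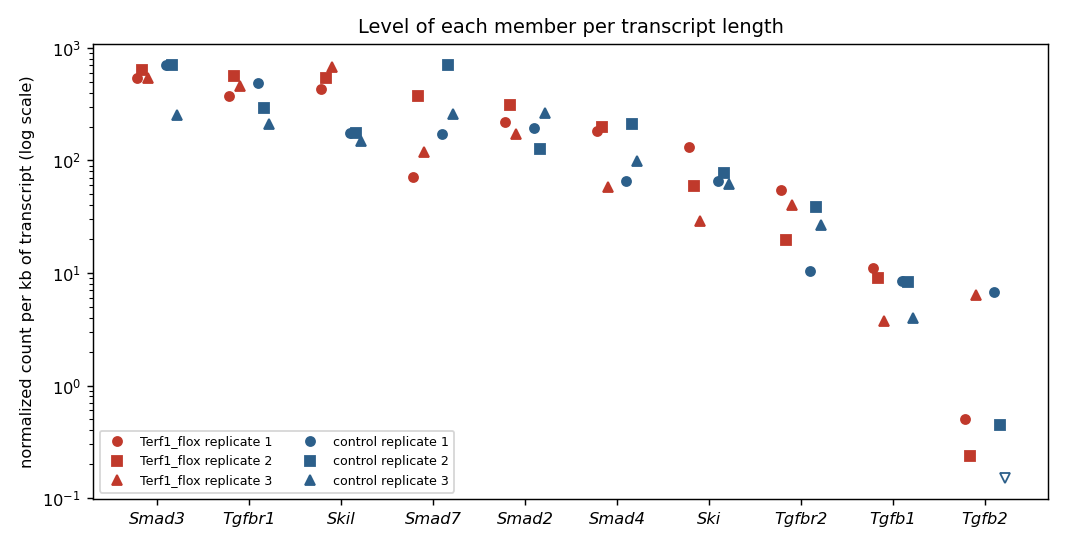
Normalized count per kilobase of transcript (y axis, log scale) of each member in the 3 Terf1_flox and 3 control libraries, ordered by the mean over all 6; the open triangle marks the control library with 0 Tgfb2 reads. The ligands are the lowest by mean, with 1 Tgfb1 library just above the lowest Tgfbr2 library, and Skil is the member whose groups separate.

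Other pathway genes were taken from 8 lists by role, with 137 distinct genes, of which 101 were tested. Limma called 0 of the 101, edgeR 0 and DESeq2 6; 15 passed an unadjusted limma p of 0.05, of which 5 were higher and 10 lower in Terf1_flox, and the groups did not overlap for 22. These counts were near the shares of all genes (5.81% for DESeq2, 14.1% and 21.1%). Counts in single lists below stand beside these same shares, and nothing particular to a list is read from them. The median log2 fold change was −0.23, or 0.16 after correction for GC content and length, beside −0.08 and 0.08 over all genes tested. None of the genes named in the next paragraphs passed in limma over all genes.

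Of the 10 tested genes of TGF-beta latency and activation, 4 were above 0 and 6 below, with a median log2 fold change of −0.45; DESeq2 called 3 of them, where it called 5.81% of all genes with an adjusted p; nothing particular to a list of 10 is read from this count. Itgav, the integrin alpha V chain that pairs with several beta chains to release latent TGF-beta, averaged 4709 ± 2223 normalized counts in Terf1_flox and 1945 ± 582 in control libraries (log2 fold change 1.21 ± 0.37, limma adjusted p = 0.213, DESeq2 adjusted p = 0.0129). Thbs1, which encodes the activator thrombospondin 1, averaged 1475 ± 128 in Terf1_flox and 593 ± 288 in control libraries (1.45 ± 0.43, limma adjusted p = 0.202, DESeq2 adjusted p = 0.0361). Itgb5, a beta chain that pairs with integrin alpha V, went the other way, at 273 ± 27.4 in Terf1_flox and 717 ± 163 in control libraries (−1.37 ± 0.37, limma adjusted p = 0.186, DESeq2 adjusted p = 0.026), and was at −0.75 after correction for GC content and length. Groups of all 3 genes did not overlap.

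Among 9 other receptors and co-receptors 7 were above 0, beside 6991 of 14822 over all genes tested. Their median was 0.29, or −0.02 without control replicate 3. DESeq2 called 0 of them, beside 5.81% of genes with an adjusted p. Acvr1, a type I receptor of the bone morphogenetic protein (BMP) branch, averaged 236 ± 102 in Terf1_flox and 51.6 ± 27.6 in control libraries (log2 fold change 2.18 ± 0.72, limma adjusted p = 0.239). Bambi, a decoy receptor without a kinase domain, had 27.2, 2.05 and 8.10 normalized counts in Terf1_flox and 44.0, 190 and 83.7 in control libraries (−3.29 ± 1.17, limma adjusted p = 0.267). Bmpr2, the BMP type II receptor, overlapped (0.69 ± 0.43). Of the other ligands, 7 were tested and 3 were above 0 (median −0.19), and the groups overlapped for all 7; Bmp4 (0.56), Bmp7 (−0.60) and Gdf15 (0.83) had the smallest p among those averaging 50 or more. Of 3 other SMADs, the BMP-branch gene Smad5 averaged 506 ± 107 in Terf1_flox and 275 ± 142 in control libraries without overlap (1.02 ± 0.53, limma adjusted p = 0.423), while Smad1 and the inhibitory Smad6 overlapped.

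Of 22 regulators of the receptors and SMADs, 16 were below 0, with a median of −0.39, or −0.04 after correction for GC content and length. Uchl5, a deubiquitinating enzyme, was the DESeq2 call in this list, at 609.6 ± 92.2 in Terf1_flox and 1388 ± 151 in control libraries (log2 fold change −1.19 ± 0.29, limma adjusted p = 0.148, DESeq2 adjusted p = 0.0111). Usp9x, a deubiquitinating enzyme of SMAD4, averaged 1497 ± 193 in Terf1_flox and 993 ± 192 in control libraries (0.60 ± 0.28). Smurf1, a ubiquitin ligase of the receptor complex, had 1.09, 2.05 and 109 normalized counts in Terf1_flox and 91.5, 106 and 81.3 in control libraries, so 1 Terf1_flox library held nearly all reads of its group.

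For the nuclear partners of SMADs, 12 of 18 were below 0 (median −0.33, or 0.03 after the correction). The histone deacetylase gene Hdac1 averaged 146 ± 91.9 in Terf1_flox and 481 ± 146 in control libraries without overlap (−1.99 ± 0.70, limma adjusted p = 0.262), and Tgif1 and Ncor1, both corepressors, overlapped. The DESeq2 call in this list was Atf3, an immediate early gene named after its values were seen; it had 16.3, 172 and 2.02 normalized counts in Terf1_flox and 1.76, 0.953 and 0 in control libraries (DESeq2 adjusted p = 0.0385), with most of its reads in Terf1_flox replicate 2. Of 14 genes of SMAD-independent signalling 8 were below 0 (median −0.21). Ppp2r2a, a regulatory subunit of protein phosphatase 2A, was the DESeq2 call there, at 199 ± 68.4 in Terf1_flox and 616 ± 151 in control libraries (−1.66 ± 0.45, limma adjusted p = 0.186, DESeq2 adjusted p = 0.0263). Rhoa (−0.84 ± 0.30) and the p38 kinase gene Mapk14 (1.03 ± 0.42) did not overlap either and did not pass.

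Of 18 tested transcriptional targets of TGF-beta, 9 were above 0 and 9 below, with a median log2 fold change of 0.09 and 0 calls by DESeq2. Timp3, an inhibitor of matrix metalloproteinases, averaged 912 ± 196 in Terf1_flox and 1705 ± 455 in control libraries (−0.89 ± 0.32, limma adjusted p = 0.267). Cdkn1a, the gene of the cell cycle brake p21, averaged 268 ± 108 in Terf1_flox and 616 ± 256 in control libraries (−1.22 ± 0.51, limma adjusted p = 0.329). Id2, an inhibitor of basic helix-loop-helix factors, averaged 7749 ± 926 in Terf1_flox and 5382 ± 1516 in control libraries (0.56 ± 0.23, limma adjusted p = 0.33). The largest log2 fold change in the list was that of Ccn2, which encodes connective tissue growth factor and was named after its values were seen. It had 20.7, 35.9 and 30.4 normalized counts in Terf1_flox and 5.28, 9.53 and 1.58 in control libraries, without overlap (2.40 ± 1.16, limma adjusted p = 0.398, DESeq2 adjusted p = 0.559). The median of the targets ran from −0.37 to 0.58 when single libraries were left out. After correction for GC content and length it was 0.61, beside 0.08 over all genes.

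**Figure D5:**
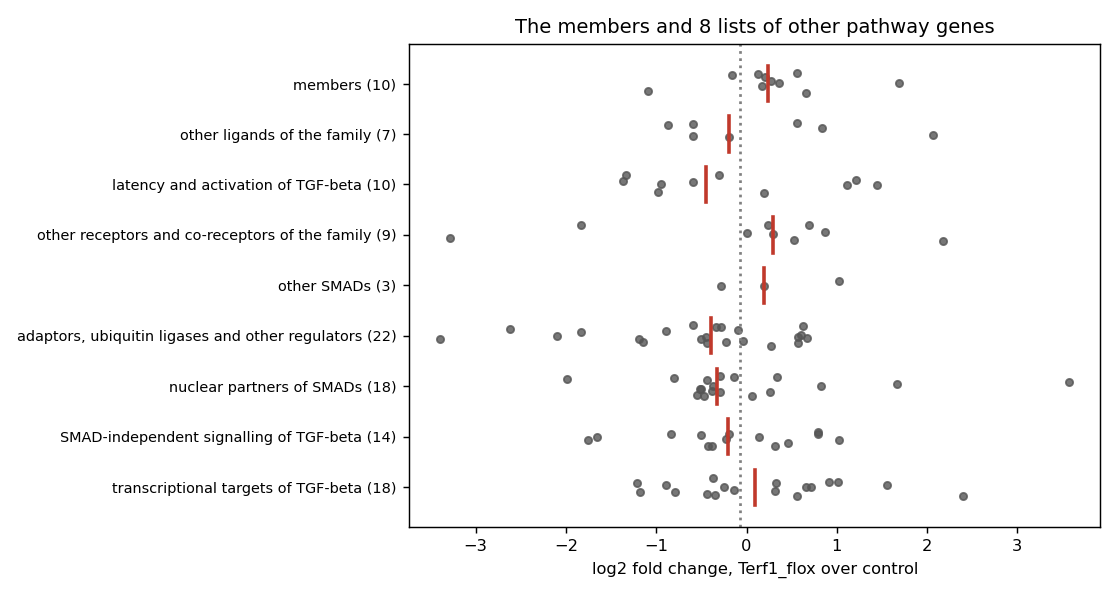
Log2 fold changes, Terf1_flox over control (x axis), of the members and of 8 lists of other pathway genes, with the number tested in parentheses. Each point is a gene, red lines are list medians and the dotted line is the median of all genes tested; the lists spread on both sides of 0, with medians from −0.45 to 0.29.

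Likeness of pattern was measured as the root mean square difference of log2 values, centred on each gene's mean, over the 6 libraries and among 9738 other genes. The genes nearest to Skil were Vmn1r18 (0.083), Taf1d (0.107) and S100a11 (0.174). Taf1d, a subunit of the RNA polymerase I factor SL1, had 959, 1344 and 1567 normalized counts in the Terf1_flox libraries and 419, 489 and 351 in the control libraries. Nearest to Tgfbr1 were Gpx8 (0.15), Oga (0.168) and Grcc10 (0.174). Smad7 had no neighbour as close, the nearest being Ercc6 (0.25), Setd3 (0.352) and Vat1 (0.367). The measure is not scaled by spread, so it does not rank how widely a pattern is shared. The SD of log2 values within groups was 1.13 for Smad7, 0.25 for Skil and 0.48 for Tgfbr1.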

How the data were processed

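The authors deposited normalized counts, a signal of reads per gene divided by a size factor per library and not by gene length. Per the submitters' processing notes, DESeq2 and build GRCm39 were used; for the aligner, counter, annotation, filter and use of strand, the sources used here name none. Libraries were made from polyadenylated RNA with a low-input kit, per the labels' protocols. In each library 100% of deposited values were whole multiples of what 1 read is worth (tolerance 0.01 of a read), so whole reads were recovered; reads are not independent molecules, and intervals or floors from them cover counting error only.

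Terf1_flox was compared with control by limma 3.58.1 (R 4.3.3, trend, two-sided) on log2(normalized count + 1) for genes with a mean of at least 10, which understates changes of low genes. edgeR 4.0.16 and DESeq2 1.42.0 on recovered reads were alternatives, beside other pseudocounts, filters and scalings, array weights, a replicate block, each library left out, and a correction for transcript GC content and length (splines with 5 degrees of freedom, GENCODE M21). Tests were tried on simulated reads. Members and lists were chosen with earlier results of these data known. Named genes are the members, Terf1, Cdh16, Epcam and, per pathway list, up to 3 genes with the smallest p and a mean of at least 50; likeness was taken for the 3 members with the smallest p. Figures used matplotlib 3.10.9.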

Additional observations from a re-analysis of the deposited data

How the results depend on the processing

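No setting tried turned the direction of Skil, Tgfbr1, Tgfbr2 or Smad7. Members called were 0 of 10, but 1 (Skil) among genes with a mean of at least 50 and 1 (Skil) with DESeq2. Fewer genes were tested in the first case, and the cause was not tested in either. Genes called overall were 0, but 132 among genes averaging 50 or more, 45 under equal library totals, 8 with quantile normalization and 772 with DESeq2. Equal totals moved the median of all genes by −0.17 and quantile normalization by 0.13. Terf1 passed among genes averaging 50 or more (−3.99), under equal library totals (−4.17) and DESeq2 (−3.89). Members near 0 changed sign, none of them called: Tgfb1 was −0.041 with equal library totals; Tgfb2 −0.29 with array weights, −0.0090 with edgeR and −0.0060 with DESeq2; Ski 0.13 with edgeR, 0.12 with DESeq2 and 0.26 after GC content and length correction. Tgfb1 and Tgfb2 were not tested at a mean of at least 50, and Tgfb2 fell below the minimum without Terf1_flox replicate 3 or control replicate 1.

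With single libraries left out, log2 fold changes ran from −0.21 to 0.56 for Tgfb1, −0.72 to 1.10 for Tgfb2, −0.0066 to 0.52 for Smad2, −0.31 to 0.42 for Smad3, −0.17 to 0.78 for Smad4, −0.71 to 0.38 for Ski and 1.52 to 1.85 for Skil (limma adjusted p 0.157 to 0.334), for Terf1 from −4.42 to −3.77, and the median of the members from −0.04 to 0.56; 0 members were called. With the longest transcript, 4 members kept their rank in level per length. The replicate numbers do not mark a shared origin in the labels, and the deviations of same-numbered libraries from their group means had correlations across genes of −0.0486, 0.00013 and −0.0069. With a replicate block limma called 0 members and 0 genes, with 1884 at an unadjusted p below 0.05 against 2095 without it, and Skil had an adjusted p of 0.245. Depth limits the ligands most.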

Other observations

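RefSeq promoter sequences (build GRCm38.p6) were matched for 6 of the 10 members, Ski, Smad3, Tgfb1, Tgfb2, Tgfbr1 and Tgfbr2, with 7 starts. CAGACA, a motif bound by SMADs, was searched on both strands of the 250 bases upstream of each start; 2 of the 7 held it, against 17.1% of 32851 promoters. Both are shown, 5′ to 3′ on the strand of the gene and with the motif in capitals, since these are the 2 member promoters that hold it. The first is at chr1:186705990-186706239 (minus strand) and the second, an alternative start, at chr4:47385966-47386215 (plus strand).
Tgfb2: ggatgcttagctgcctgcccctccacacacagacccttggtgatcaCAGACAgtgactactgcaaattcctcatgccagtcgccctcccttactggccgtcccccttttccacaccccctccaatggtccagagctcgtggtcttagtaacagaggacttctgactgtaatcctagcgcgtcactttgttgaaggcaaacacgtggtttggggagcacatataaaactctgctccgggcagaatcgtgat
Tgfbr1: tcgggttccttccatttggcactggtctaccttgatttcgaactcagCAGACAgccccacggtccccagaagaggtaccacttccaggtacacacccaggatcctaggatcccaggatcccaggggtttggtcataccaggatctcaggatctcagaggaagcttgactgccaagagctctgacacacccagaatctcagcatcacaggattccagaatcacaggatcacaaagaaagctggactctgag
GTCTAGAC, GGCGC and GGCCG were searched in the same bases, and 0.167%, 32.0% and 30.4% of the 32851 promoters held them. GGCCG occurred at every member start but the alternative one of Tgfbr1. GGCGC occurred in Ski, Tgfb1 and the other start of Tgfbr1, and GTCTAGAC in none. The starts with GGCCG had a GC content of 53.6% to 87.6%, beside a median of 52.4% over all promoters, and nothing is read from these matches. A match is a description of these letters and not of binding.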
